A study of Mus musculus with 11 samples.

Results

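The HOX cluster promoters are the 39 promoter windows of the deposited table whose gene symbol is Hoxa, Hoxb, Hoxc or Hoxd followed by a number only, out of 21881 windows of 1000 bp with 1 window per symbol. They hold 11 Hoxa, 10 Hoxb, 9 Hoxc and 9 Hoxd genes. By paralog number 12 were anterior (groups 1 to 4), 11 central (5 to 8) and 16 posterior (9 to 13). Members were chosen by name, with earlier results on the same read counts known, so the counts are given as a description and without a test. The Hoxa11as window, an antisense transcript, is not a member.

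The study addresses ST18, a DNA-binding zinc finger protein related to MYT1, in mouse cortical development. The libraries used here were a chromatin immunoprecipitation (ChIP) with an antibody to the HA tag, labelled as 2 ST18 samples, and 1 input sample of genomic DNA, all from cells called TN and labelled as brain cells and as in vitro. TN is not explained in the labels, the growth and treatment text repeats that of the electroporated embryos, and the input carries an HA ChIP molecule label that its title and description contradict. The other 8 samples are RNA from cortical cells that were electroporated at E12.5 (an embryonic day) with an ST18 knockdown (4 samples) or non-targeting control construct (4 samples) and collected at E16.5, and they were not analysed here. The table has 1 ST18 column (438960 reads) and 1 input column (160443 reads), so no value has a replicate error, and whether the ST18 column holds 1 or both ChIP samples is not stated. With no expression table used here, the labelled cell type was not checked against its markers.

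HOX genes encode homeodomain transcription factors that give cells along the head-to-tail axis their regional identity. Within each cluster the order of the genes along the chromosome follows the order of their expression domains, from the hindbrain for the low paralog numbers to the tail, limb ends and genital region for the high ones. The cerebral cortex lies in front of these domains, and in such cells the clusters are typically held silent by Polycomb proteins, while trithorax proteins keep them active elsewhere. Proteins of the MYT1 family bind DNA at a short AAGTT core, which makes the letters of the promoters a useful backdrop to the read counts.

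RefSeq promoter sequences of build GRCm38.p6 were found for 22 of the 39 members, taking the first start site listed where a gene has several. The 5 below cover the 250 bases before the start site and are shown because they include the window lowest in ST18 over input reads (Hoxa11), the window with the most ST18 reads (Hoxa6), the member with the highest log2 enrichment among those with a sequence (Hoxd13) and 2 members that hold the longer motif AAAGTTT (Hoxd4 and Hoxd12). Each is written from 5′ to 3′ on the gene's strand, with AAGTT or its reverse complement AACTT in capitals.
Hoxa11, chr6:52245811-52246060, minus strand: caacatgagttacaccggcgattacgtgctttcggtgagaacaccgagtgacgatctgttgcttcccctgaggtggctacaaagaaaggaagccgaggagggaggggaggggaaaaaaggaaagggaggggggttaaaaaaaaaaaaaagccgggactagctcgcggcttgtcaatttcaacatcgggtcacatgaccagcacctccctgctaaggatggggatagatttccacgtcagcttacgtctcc
Hoxa6, chr6:52208673-52208922, minus strand: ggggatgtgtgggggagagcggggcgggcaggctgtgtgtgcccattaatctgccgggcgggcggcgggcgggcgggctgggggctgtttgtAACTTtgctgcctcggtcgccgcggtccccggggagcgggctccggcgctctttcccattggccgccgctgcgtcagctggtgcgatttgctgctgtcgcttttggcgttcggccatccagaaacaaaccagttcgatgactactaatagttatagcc
Hoxd13, chr2:74667975-74668224, plus strand: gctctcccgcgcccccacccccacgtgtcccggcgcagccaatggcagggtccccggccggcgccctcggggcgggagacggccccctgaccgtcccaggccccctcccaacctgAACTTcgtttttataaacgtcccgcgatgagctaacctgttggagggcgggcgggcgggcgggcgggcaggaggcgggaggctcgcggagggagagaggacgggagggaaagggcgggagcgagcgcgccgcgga
Hoxd4, chr2:74721728-74721977, plus strand: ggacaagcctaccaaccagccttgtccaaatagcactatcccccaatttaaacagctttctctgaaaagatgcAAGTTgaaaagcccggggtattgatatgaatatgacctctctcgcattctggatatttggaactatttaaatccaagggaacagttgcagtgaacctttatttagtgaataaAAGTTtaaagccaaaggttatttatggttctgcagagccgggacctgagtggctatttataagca
Hoxd12, chr2:74674763-74675012, plus strand: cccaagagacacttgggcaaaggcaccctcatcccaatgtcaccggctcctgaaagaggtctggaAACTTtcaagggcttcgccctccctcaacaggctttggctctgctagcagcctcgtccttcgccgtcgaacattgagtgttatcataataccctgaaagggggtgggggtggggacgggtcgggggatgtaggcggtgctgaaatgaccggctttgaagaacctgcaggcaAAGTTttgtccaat
The printed Hoxa11 stretch holds no AAGTT, those of Hoxa6 and Hoxd13 hold 1 each, and those of Hoxd4 and Hoxd12 hold 2 each. The Hoxd12 matches lie 185 and 14 bases before the start site, and both are part of AAAGTTT or its reverse complement. A further Hoxd4 match reaches past the printed stretch.

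Over all 39 members, the ST18 column was at the level of other promoters and the input column was above it. HOX windows held 791 ST18 reads, or 20.3 per window (exact 95% Poisson interval 18.9 to 21.7), against 20.1 per window over all promoters. They held 340 input reads, or 8.72 per window (7.82 to 9.70), against 7.33. The ST18 level was thus 101% and the input level 119% of the average window. Input exceeded the median of all windows, 7 reads, in 24 of 39 members (61.5%), against 46.3% of all windows, and ST18 exceeded its median of 20 reads in 17 of 39 (43.6%), against 47.7%. All intervals in these results cover counting error only, since no value has a replicate error. They treat each read as a separate molecule. Removal of duplicate reads was not given in the sources used here, and copies left in would make the intervals too narrow.

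The summed ratio of ST18 to input reads was 0.850-fold that of all promoters (exact Clopper-Pearson 95% interval 0.748 to 0.968). This fold, used throughout, divides the ST18 to input ratio of a window or group by the ratio over all windows, 2.74. Without the 11 Hoxa windows it was 0.936 (0.800 to 1.10), so the interval wholly below 1 rests on that cluster. The deposited log2 enrichment, a log2 ratio of scaled ST18 to input reads with 16 reads added to each side, had a median of −0.02 over the HOX windows against 0.04 over all windows. The added 16 reads exceed the input count of all members but Hoxa5 and Hoxa6 and pull each log2 value towards 0.

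The log2 enrichment of the HOX windows ranged from −0.47 (Hoxa11) to 0.34 (Hoxc5), with an SD of 0.19 across windows, against an SD of 0.23 over all windows. Members at a log2 enrichment of 0.25 or more numbered 3 of 39 (7.69%), against 18.0% of all windows: Hoxc5, Hoxb5 and Hoxd13. Members at −0.25 or less also numbered 3, against 9.11% of all windows: Hoxa11, Hoxa4 and Hoxa5. Scaled to the promoter totals, these numbers were 2 and 4, against 12.2% and 12.1% of all windows. Just short of these thresholds were Hoxb13 at 0.23 and Hoxc13 at −0.22. Of the 39, 24 lay below the median of all windows (61.5%), where 49.9% of all windows lie. No member had an interval of the fold wholly above 1, where 2.37% of all windows did, and 1 had it wholly below 1, where 3.24% did. On the low side the count depended on the setting: at −0.15 or less lay 12 of 39 (30.8%), against 18.4% of all windows, and with a pseudocount of 1 in place of 16, 17 of 39 (43.6%) lay at −0.25 or less, against 26.9%. On the high side the HOX share was below that of all windows at each threshold and pseudocount tried. By these intervals, ST18 enrichment was not detected at any single HOX promoter, and the part of read depth in this was not tested.

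**Figure D1:**
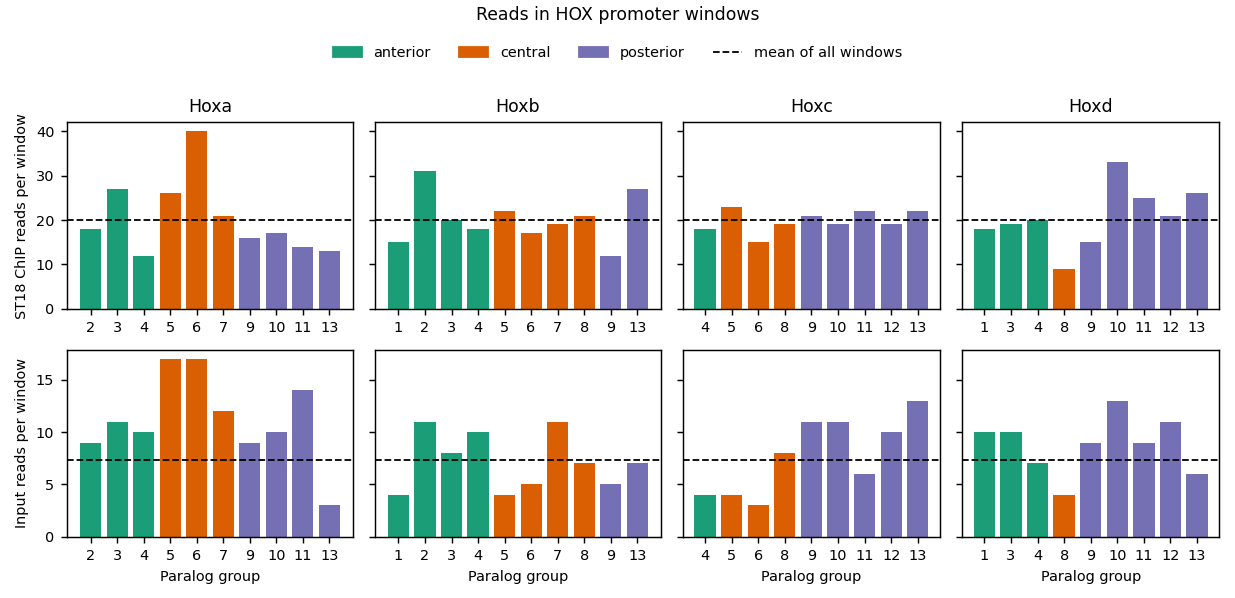
ST18 ChIP reads (upper row) and input reads (lower row) in 38 of the 39 HOX promoter windows, by cluster and paralog group, coloured by position; dashed lines are the means of all windows, 20.1 and 7.33 reads. Hoxa6 has the highest ST18 bar, 40 reads, and Hoxa5 and Hoxa6 the highest input bars, 17 reads each.

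The Hoxa cluster, on chromosome 6, had the lowest summed fold of the 4 clusters. It held 225 ST18 reads, 20.5 per window, and 119 input reads, 10.8 per window (8.96 to 12.9), so its ST18 level was 102% and its input level 148% of the average promoter. The summed fold was 0.691 (0.551 to 0.870). In 9 of 11 Hoxa windows the fold was below 1, as in 48.4% of all windows, and the same number had more than 7 input reads, as in 46.3% of all windows.

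Among the anterior Hoxa genes, Hoxa2, which patterns the second pharyngeal arch, held 18 ST18 against 9 input reads, a fold of 0.731 (0.312 to 1.85), and Hoxa3, needed for the thymus and parathyroid, held 27 against 11. Hoxa4 held 12 against 10, a log2 enrichment of −0.32 and a fold of 0.439 (0.174 to 1.13). The folds of these 3 neighbours lay below 1, and each interval included 1.

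Of the central Hoxa genes, Hoxa5 and Hoxa6 held the most input reads of all members. Hoxa5, which acts in lung and respiratory development, held 26 ST18 against 17 input reads (log2 −0.31, fold 0.559, 0.292 to 1.10). Hoxa6 held 40 against 17 (log2 −0.03, fold 0.860, 0.477 to 1.62). Both input counts lay at the 99.3rd percentile of all windows, and the ST18 count of Hoxa6 at the 98.5th. Hoxa7 held 21 against 12, a fold of 0.640 (0.301 to 1.43). Together these 3 windows averaged 29.0 ST18 and 15.3 input reads, a fold of 0.691 (0.478 to 1.01). Without Hoxa5 and Hoxa6 the Hoxa fold was 0.684 (0.522 to 0.901), close to that of the whole cluster.

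The posterior Hoxa genes had few ST18 reads, 15.0 per window, with the input at 123% of the average promoter. Hoxa9, a partner of Meis1 in leukaemia, held 16 ST18 against 9 input reads, and Hoxa10, which acts in the uterus, held 17 against 10. Hoxa11, required for the forearm bones and the uterus, held 14 against 14, the lowest log2 enrichment of all members (−0.47, at the 1.05th percentile of all windows). Its fold of 0.366 (0.162 to 0.827) was the only one of the 39 with an interval wholly below 1, which 3.24% of all windows have. Hoxa13, the most posterior gene of the cluster, which shapes the digits and the genital tract, went the other way with 13 against 3 reads (log2 0.16, fold 1.58, 0.435 to 8.67). The 4 posterior Hoxa windows together gave a fold of 0.609 (0.396 to 0.948). Without Hoxa11 the Hoxa cluster stood at 0.734 (0.579 to 0.937).

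The Hoxb cluster, on chromosome 11, was closest to the average promoter. It held 202 ST18 reads (20.2 per window) and 72 input reads (7.20 per window), a summed fold of 1.03 (0.780 to 1.36), and its input level was 98.2% of the average. Of its 10 windows, 4 had a fold below 1, against 48.4% of all windows. The interval of its fold overlapped that of Hoxa, and the difference between clusters was not tested.

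Within Hoxb, the fold was highest at Hoxb5 and lowest at Hoxb7. Hoxb5, expressed in the posterior hindbrain and enteric neural crest, held 22 ST18 against 4 input reads (log2 0.32, fold 2.01, 0.683 to 8.02), the second highest log2 of the members. Hoxb7 held 19 against 11 (log2 −0.19, fold 0.631, 0.286 to 1.47), and Hoxb4, known from blood stem cells, held 18 against 10 (log2 −0.16, fold 0.658). The ST18 counts of these 3 windows differ by 4 reads at most, while their input counts span 4 to 11, so the order of their folds follows the input.

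The other Hoxb windows had folds from 0.877 to 1.41. Hoxb1, which specifies facial motor neurons, held 15 ST18 against 4 input reads. Hoxb2 held 31 against 11, the highest ST18 count of the cluster at a fold of 1.03 (0.504 to 2.27), and Hoxb3 held 20 against 8. Hoxb6 held 17 against 5, and Hoxb8, whose loss causes excessive grooming, held 21 against 7. Hoxb9 held 12 against 5, and Hoxb13, which acts in the prostate and the tail, held 27 against 7 (log2 0.23, fold 1.41, 0.599 to 3.83). None of the 10 Hoxb intervals left out 1.

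The Hoxc cluster, on chromosome 15, which has no paralogs 1 to 3, is described from its front to its back. Its summed fold was 0.929 (0.701 to 1.24) from 178 ST18 and 70 input reads. ST18 counts ran from 15 to 23 reads per window and input counts from 3 to 13. The 3 lowest input counts were at the front of the cluster.

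At that front, Hoxc4 held 18 ST18 against 4 input reads (log2 0.22, fold 1.64, 0.542 to 6.68). Hoxc5 held 23 against 4 (log2 0.34, fold 2.10, 0.718 to 8.36), the highest log2 enrichment of all members, at the 90.4th percentile of all windows. Hoxc6 held 15 against 3 (log2 0.22, fold 1.83). Hoxc8, which acts in motor neurons that supply the forelimb, followed with 19 against 8, a fold of 0.868 (0.363 to 2.29).

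Behind them, 4 of the 5 posterior Hoxc windows had a fold below 1, against 48.4% of all windows. Hoxc9, a repressor of forelimb motor neuron identity at thoracic level, held 21 ST18 against 11 input reads, and Hoxc10, active at lumbar level, held 19 against 11. Hoxc12 held 19 against 10, and Hoxc13, a regulator of hair keratins, held 22 against 13 (log2 −0.22, fold 0.619, 0.298 to 1.34). Hoxc11 was the exception with 22 against 6 (log2 0.18, fold 1.34). The summed fold was 0.738 (0.523 to 1.05) over the 5 posterior windows and 1.39 (0.776 to 2.64) over the 3 central ones. These intervals overlap, each includes 1, and the difference was noticed in the same counts and not tested.

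The Hoxd cluster, on chromosome 2, lay between Hoxa and Hoxc. It held 186 ST18 and 79 input reads, 20.7 and 8.78 per window, and its summed fold was 0.861 (0.658 to 1.13). In 6 of 9 windows the fold was below 1, against 48.4% of all windows.

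Of the anterior Hoxd genes, Hoxd1, which acts in pain-sensing neurons, held 18 ST18 against 10 input reads, Hoxd3 19 against 10 and Hoxd4 20 against 7. The lowest counts of the cluster were at Hoxd8, with 9 against 4 reads and a fold of 0.822 (0.230 to 3.65). These 4 windows fell between log2 enrichments of −0.16 and 0.07.

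The posterior Hoxd genes, which build limbs and digits, spread more widely. Hoxd9 held 15 ST18 against 9 input reads (log2 −0.18, fold 0.609), and Hoxd12 held 21 against 11 (log2 −0.14, fold 0.698). Hoxd10, which acts in lumbar motor neurons, held 33 against 13, high in both libraries and at a fold of 0.928 (0.476 to 1.92), and Hoxd11 held 25 against 9. Hoxd13, mutated in human synpolydactyly, held 26 against 6 (log2 0.27, fold 1.58, 0.638 to 4.71), the highest log2 of the cluster. The 5 together gave a fold of 0.914 (0.649 to 1.31), above the 0.609 and 0.738 of the posterior Hoxa and Hoxc genes, with overlapping intervals.

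**Figure D2:**
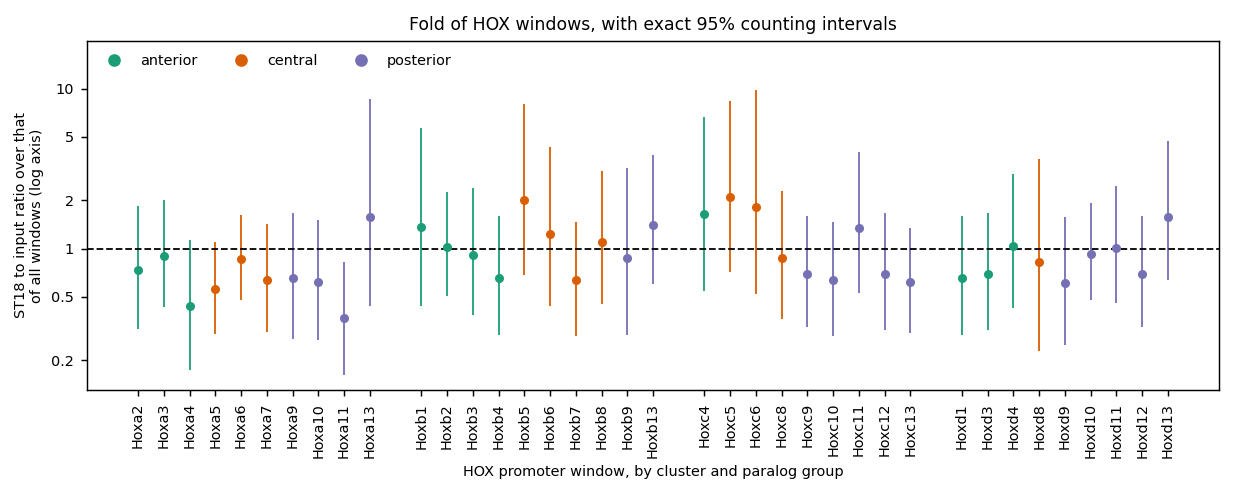
Fold of 38 of the 39 HOX promoter windows (ST18 to input ratio over that of all windows, log axis) with exact 95% binomial intervals for counting error, by cluster and paralog group and coloured by position; the dashed line is the ratio of all windows. Only the interval of Hoxa11 (0.162 to 0.827) lies wholly on one side of 1.

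The summed folds of the 3 positions ran from 0.801 to 0.922. Anterior windows held 237 ST18 and 101 input reads, a fold of 0.858 (0.677 to 1.09). Central windows held 232 and 92, a fold of 0.922 (0.721 to 1.19), and posterior windows 322 and 147, a fold of 0.801 (0.657 to 0.980). The folds did not run in one direction along the axis, and all 3 intervals overlapped. Median log2 enrichments were 0.00, −0.02 and −0.14 in the same order.

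The posterior value below 1 came with high input, as for Hoxa. Posterior windows averaged 20.1 ST18 reads, 100.3% of the average promoter, and 9.19 input reads (7.76 to 10.8), 125%. Of the 16, 11 lay below the median log2 of all windows, where 49.9% of all windows lie. Without the Hoxa genes the posterior fold was 0.863 (0.688 to 1.09), and without the Hoxc genes 0.834 (0.653 to 1.07). Without the Hoxa genes the central fold was 1.15 (0.822 to 1.64) and the anterior fold 0.908 (0.675 to 1.23). Without the Hoxc genes the central fold was 0.831 and the anterior fold 0.825, beside the posterior 0.834, so the order of the positions depended on which cluster was included.

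**Figure D3:**
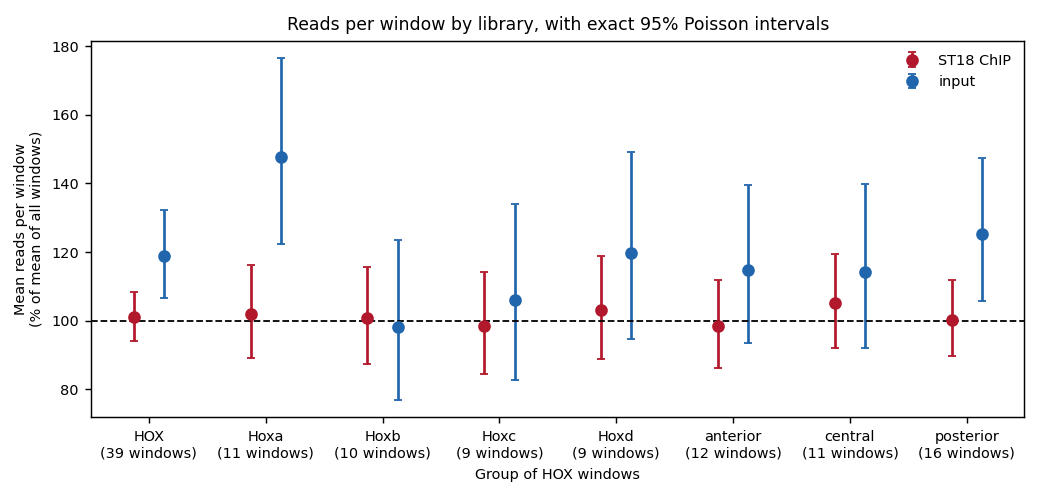
Mean ST18 ChIP reads (red) and input reads (blue) per window, as a percent of the mean of all windows, for all HOX windows, the 4 clusters and the 3 positions, with exact 95% Poisson intervals; the axis does not start at 0. The ST18 values lie between 98.4% and 105%, while the input values run from 98.2% (Hoxb) to 148% (Hoxa).

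Paralogs share a homeodomain type and a place in the cluster, and each group holds only 2 to 4 windows. All members had a fold below 1 in groups 3 (Hoxa3, Hoxb3, Hoxd3), 7 (Hoxa7, Hoxb7), 9 (4 windows), 10 (Hoxa10, Hoxc10, Hoxd10) and 12 (Hoxc12, Hoxd12). Of all windows, 48.4% had a fold below 1. The lowest summed folds were 0.636 (0.371 to 1.11) in group 7, from 40 ST18 and 23 input reads, and 0.688 (0.447 to 1.08) in group 9, from 64 and 34. Group 13 had the highest, 1.11 (0.722 to 1.75), with Hoxa13, Hoxb13 and Hoxd13 above 1 and Hoxc13 below. Group 5 had the widest span of log2 enrichment, with Hoxb5 and Hoxc5 the 2 highest members by log2 and Hoxa5 among the 3 lowest. Group 11 spanned nearly as much, from Hoxc11 at 0.18 to Hoxa11 at −0.47. The interval of every paralog group's fold included 1.

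The letters of the promoters were set beside these counts for the 22 members with a sequence of 300 bases (250 before to 50 after the start site). These were 9 Hoxa, 3 Hoxb, 1 Hoxc and 9 Hoxd genes, and they averaged 9.36 input reads, against 7.88 in the other 17 members, so they lean towards the windows with high input. Their median GC content was 56.8% (39.7 to 81.0%), against 57.3% over 14683 promoters with a window in the table. Their median number of CpG pairs was 13.5, against 15. Over all promoters, the mean input count rose from 4.53 reads below 40% GC to 8.22 between 60 and 65%. The mean ST18 count rose from 10.6 to 23.2 over the same range. Above it the input fell, to 8.06 between 65 and 70% and 7.77 from 70%. The fold was 0.854 below 40% GC, 1.06 between 65 and 70% and 1.05 from 70%, so the ratio also differed with GC.

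Hoxa5 (61.7% GC) and Hoxa6 (62.0%) held 17 input reads each, where windows between 60 and 65% GC averaged 8.22, and Hoxa11 (51.0%) held 14, where windows between 50 and 55% GC averaged 7.56. At the other end, Hoxa13 had the highest GC (81.0%) and 45 CpG pairs, with 3 input reads. Across the 22 promoters, GC content and input reads had a Pearson r of −0.03 and a Spearman rho of 0.10. These points share 1 input library, and the part of GC content in the counts was not tested.

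**Figure D4:**
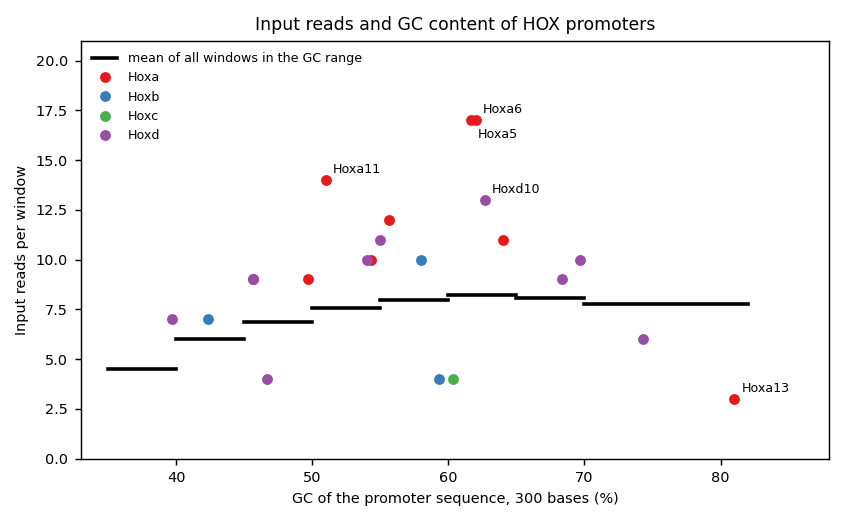
Input reads per window against the GC content of the 300-base promoter sequence for the 22 HOX genes with a sequence, coloured by cluster; black lines are the mean input reads of all windows in each GC range, the first covering everything below 40% and the last everything from 70%. Hoxa5, Hoxa6 and Hoxa11 lie well above the lines (17, 17 and 14 reads) and Hoxa13 below (3 reads), and the points of Hoxa2 and Hoxd11 coincide.

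The AAGTT core on either strand was in 10 of the 22 sequences (45.5%), against 36.9% of all promoters. Those 10 windows held 231 ST18 and 95 input reads, a fold of 0.889 (0.697 to 1.14), and the 12 without it held 219 and 111, a fold of 0.721 (0.571 to 0.915). By cluster, AAGTT was in 3 of 9 Hoxa, 0 of 3 Hoxb, 1 of 1 Hoxc and 6 of 9 Hoxd sequences. The longer AAAGTTT, whose matches all contain AAGTT, was in 3 sequences, Hoxd4, Hoxd11 and Hoxd12, against 4.36% of all promoters. These 3 windows had log2 enrichments of 0.07, 0.06 and −0.14 and a summed fold of 0.893 (0.563 to 1.45). The promoters printed above were picked by their counts or by this motif, so they cannot show whether AAGTT goes with ST18 reads. Over all 14683 promoters, those with AAGTT had a median log2 enrichment of 0.03 and a median GC content of 52.0%, and those without it 0.05 and 60.3%.

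Homeodomain proteins bind a TAAT core, and HOX proteins with PBX partners a longer site, here searched as TGATNNAT, both on either strand. TAAT was in 17 of the 22 sequences (77.3%), against 51.1% of all promoters, and TGATNNAT in 3, Hoxa2, Hoxb1 and Hoxb8, against 7.38%. The anterior genes Hoxa2 and Hoxb1 are known to be under the control of HOX and PBX proteins in the hindbrain, through enhancers that need not lie in this stretch. A match to letters is no proof of a bound site, and the 1000 bp windows are longer than the sequences searched.

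Related genes were described from lists chosen by function or place, with earlier results on the same counts known. The 7 microRNA and antisense windows inside the clusters had a summed fold of 1.09 (0.788 to 1.53), from Mir196a-2 at a log2 of 0.37 and Mir615 at 0.21 to Mir196a-1 at 0.02 and Mir10b at −0.39. Mir10b lies beside Hoxd4 and held 15 ST18 against 13 input reads (fold 0.422, 0.187 to 0.963), where Hoxd4 held 20 against 7 (1.04, 0.424 to 2.92), and these intervals overlap. The 11 genes at the ends of the clusters gave 0.899 (0.712 to 1.14), from Skap1 at 0.31 and the homeobox gene Evx1 at 0.29 to Calcoco1 at −0.42 and Smug1 at −0.47. Calcoco1 (0.241 to 0.918) and Smug1 (0.162 to 0.827) had intervals wholly below 1. They are 2 of the 11 (18.2%), against 1 of the 39 HOX windows and 3.24% of all windows. Wholly above 1 were 0 of the 11, against 2.37% of all windows. Beside Hoxa, Skap2 held 35 against 9 reads (fold 1.42, 0.670 to 3.36), Evx1 18 against 3 (2.19, 0.640 to 11.6) and Hibadh 13 against 7 (0.679), and the Skap2 and Evx1 intervals overlap that of the cluster.

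By summed fold, the protein partners and regulators of HOX genes were near the average promoter, with intervals that include 1. The 9 PBX and MEIS cofactor genes had a summed fold of 0.865 (0.648 to 1.17), with Meis1 at 0.27 and Meis3 at 0.25 highest and Meis2 at −0.29 among the lowest. The 25 Polycomb genes gave 0.984 (0.837 to 1.16), from Mtf2 at 0.43 and Ezh2 at 0.33 to Pcgf6 and Cbx7 at −0.29 each. The 13 trithorax and activator genes gave 1.05 (0.830 to 1.33), led by Mll1, the methyltransferase that keeps HOX genes active, at 0.64 with 41 against 5 reads, and Wdr5 at 0.25, with Psip1 at −0.24 and Ash1l at −0.26 lowest. The 6 Cdx and ParaHox genes, relatives and upstream regulators of HOX genes, gave 0.860 (0.615 to 1.22), from Cdx2 at 0.08 and Cdx4 at 0.03 to Pdx1 at −0.04 and Cdx1 at −0.15.

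Homeobox genes that pattern the brain also had an interval that includes 1. Their 35 windows averaged 22.5 ST18 and 7.37 input reads, against 20.3 and 8.72 for HOX, and had a summed fold of 1.11 (0.966 to 1.29). At a log2 of 0.25 or more lay 9 of these 35, led by Emx2 at 0.47 and Vax1 at 0.42, against 3 of the 39 HOX windows and 18.0% of all windows. At −0.25 or less lay 4 of the 35, against 3 of the 39 and 9.11% of all windows. Gbx2 at −0.34 and Dlx5 at −0.42 were lowest. The interval of this list overlaps that of all HOX windows at its edge and that of HOX without Hoxa (0.800 to 1.10) broadly, and the difference was not tested.

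**Figure D5:**
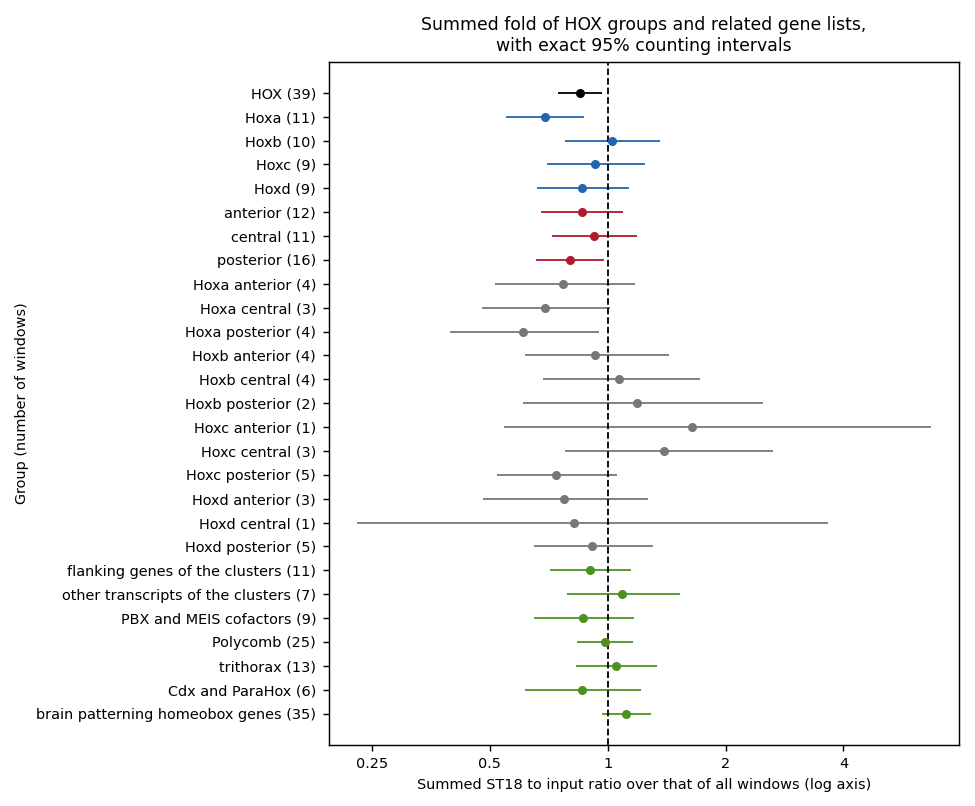
Summed fold (ST18 to input ratio over that of all windows, log axis) with exact 95% binomial intervals for all HOX windows (black), clusters (blue), positions (red), positions within clusters (grey) and related gene lists (green), with the number of windows in brackets. The intervals of all HOX windows (0.748 to 0.968), Hoxa, the posterior genes and the posterior Hoxa genes lie wholly below 1.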

How the data were processed

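The promoter table deposited by the authors gives whole-number read counts per 1000 bp window in 1 ST18 and 1 input column, and a log2 enrichment. The deposited log2 values are met in every window when ST18 counts are multiplied by 0.406, 16 reads are added to both columns and the log2 of their quotient is taken. The submitters' processing notes name Bowtie, MACS2 2.0.10.20120913, TopHat2 2.0.8, HTSeq 0.5.4p1, edgeR and build mm9, with no roles; window position, read filters and removal of duplicates were not given in the sources used here. Folds with exact (Clopper-Pearson) 95% binomial intervals, summed per group, and exact Poisson intervals of mean counts were computed with Python 3.11.15 and scipy 1.17.1, and the interval code was tested on simulated data. Choice of members, lists and thresholds was made with earlier results of these data known. Named were the members and the 2 highest and 2 lowest genes of each list, plus Skap2 and Hibadh, named after their values were seen. The values of 1 member and 1 list gene are not reported here, but they count in the sums. The authors' peak list (mm9) was not used here, since the promoter table gives no coordinates to set it against. Windows of nearby genes may share reads. Alternatives changed threshold, pseudocount, scaling, read minimum, reference ratio, position borders and members left out.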

Additional observations from a re-analysis of the deposited data

How the results depend on the processing

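Counts at a log2 of 0.25 or more and −0.25 or less, 3 and 3 HOX windows, moved with how strict the setting was: 8 and 12 at a threshold of 0.15, 0 and 1 at 0.4, 8 and 9 with a pseudocount of 8, and 12 and 17 with a pseudocount of 1. The HOX shares were 20.5% and 30.8%, 0% and 2.56%, 20.5% and 23.1%, and 30.8% and 43.6% in that order, against 31.3% and 18.4%, 5.88% and 2.35%, 29.0% and 17.0%, and 42.2% and 26.9% of all windows, so at these 4 settings the HOX share was the lower on the high side and the higher on the low side. Centring on the median of all windows and scaling to the promoter totals each gave 2 and 4, where both HOX shares (5.13% and 10.3%) were the lower, as at the reported setting. The number below the median of all windows was 24 of 39 with either pseudocount. Among members with 20 or more reads, 24 of 34 (70.6%) lay below the median of all windows with 20 or more reads. That median is another reference, so the 2 shares are not directly comparable. Of 63 alternative folds of the clusters, positions and all members, 62 stayed within the interval of the reported fold. Of the folds with an interval away from 1, 0 changed sides. The alternatives reuse the same reads and mostly the same windows, so this gives no independent support. For Hoxa, 6 of 6 alternatives with an interval had it wholly below 1. The same held in 7 of 9 for the posterior genes and 9 of 10 for all members. The alternative outside its interval was Hoxa, 0.879 with equal weight per window. That setting averages log2 values that carry the pseudocount, so the parts of weighting and pseudocount were not separated. It gave 0.931 for the posterior genes and 0.953 for all members. Leaving out Hoxa11, or Hoxa5 with Hoxa6, which was chosen after seeing the data, left the fold of all members at 0.871 (0.764 to 0.995) and 0.866 (0.757 to 0.993). Peaks were not set against HOX windows. No paired analysis was possible because ST18 reads come in 1 column with no replicate label and RNA samples were not used. Depth is 1 limit, beside the lack of replicates: at 20 ST18 and 8 input reads, as at Hoxb3, the interval runs from 0.386 to 2.40.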
